A study of Mus musculus with 8 samples.

Results

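The IL-6 family was followed as 10 genes of ligands, receptors and signalling components: Il6, Il11, Lif, Osmr, Lifr, Il6st, Il6ra, Il11ra1, Stat3 and Socs3. The genes were chosen with earlier results of these data known. Their probes were taken by gene name on the array, whatever their values. This gave 16 of the 41174 probes, for 9 of the 10 genes, because Lif was carried by none as a gene name. Cells were primary vascular smooth muscle cultures from the aorta of C57BL/6 mice, kept in medium with serum. The AngII group (n = 4) was treated with angiotensin II at 1 µM, a vasoconstrictor peptide that also promotes remodelling of the vessel wall. The AngII+CsA group (n = 4) was given the same angiotensin dose and 200 ng/ml cyclosporin A, which with cyclophilin blocks the phosphatase calcineurin and so the activation of NFAT transcription factors. All 8 cultures thus carried angiotensin. Cells without it were not analysed here, and the length of treatment is not given in the sources used here. The comparison asked whether transcripts of angiotensin-treated muscle depended on the cyclosporin-sensitive pathway.

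IL-6 family cytokines signal through gp130, the receptor chain encoded by Il6st. IL-6 and IL-11 first bind a private receptor, encoded by Il6ra and Il11ra1, and the complex pairs gp130 chains, whereas LIF and oncostatin M join gp130 to the LIF receptor (Lifr) or the oncostatin receptor (Osmr). The paired chains activate JAK kinases, which phosphorylate STAT3. STAT3 in turn switches on Socs3, whose product binds gp130 and the kinases and shuts the signal off. Vascular muscle is a known source of IL-6 under inflammatory stimuli and angiotensin.

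Each level is a log2 signal set to 0 at the 75th percentile of its own array. On an array with 43379 spots, 42.8% to 51.7% rose above background, and the dimmest signal above background lay between -4.03 and -3.03. Arrays of one replicate number came from one slide and scan, and differences were taken within these 4 pairs. The arrays grouped by number: both arrays of replicate 1 stood apart on the first principal component, which held 52.8% of the variance, with scores of -95.1 and -73.4 against -3.32 to 58.0 for the other 6. The 8 smooth muscle marker genes each had a tested probe (11 of 13 probes). Des was above background on 5 of 8 arrays, and of 5 Acta2 probes 3 were on all 8, 1 on 2 and 1 on no array. The summed level, which the probes of strongest signal dominate, was 8.73 to 10.97 with AngII and 8.49 to 10.86 with AngII+CsA. Of the probes for other cells, 4 of 19 for macrophages, 2 of 13 for endothelium and 4 of 11 for T cells were above background on at least 4 arrays. The summed levels with AngII and with AngII+CsA were 2.96 to 3.63 and 2.82 to 3.51 for macrophages, -0.67 to -0.31 and -0.82 to -0.46 for endothelium, and 0.63 to 1.48 and 0.43 to 0.99 for T cells. The brightest macrophage probes were of Cd14 (mean level 2.69) and Cd68 (0.40), and the other tested ones were of Csf1r. Probes of Ptprc, Emr1, Itgam, Aif1 and Fcgr1 were each above background on at most 1 array. Fibroblast and adventitia markers, which cultured muscle can also express, had 5 of 9 probes at that mark and summed levels of 8.24 to 10.2 and 8.43 to 10.2. The part of these cells in the results below was not tested, and in a culture fewer cells of a type and less RNA per cell cannot be told apart.

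Among these markers Cnn1, the muscle protein calponin, was lower in 4 of 4 pairs, with differences from -2.70 to -1.28 and a mean of -1.71 (limma, replicate block, adjusted p = 0.480), while the brightest Acta2 and Tagln probes differed by 0.01 and -0.02. Myh11, smooth muscle myosin, was higher in 4 of 4 pairs by a mean of 0.34 and Smtn, smoothelin, in 3 of 4 by 0.28. Lmod1 had a mean difference of -0.37, with 2 of 4 pairs lower, and Myl9 of -0.20, with 3 of 4 lower. None of these genes passed. Over all probes 9.09% were lower in 4 of 4 pairs and 5.2% higher. Of the 11 tested muscle probes, 5 were lower and 6 higher, with a median of 0.01. Both endothelial probes tested, dim ones of Vwf and Tek, were lower, with a median of -0.26, and neither passed. Most tested probes of the other cells were lower too: 3 of 4 for macrophages, 3 of 4 for T cells and 4 of 5 for fibroblasts and adventitia.

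No IL-6 family probe passed the test for cyclosporin. In the limma fit blocked on replicate, 0 of 11 tested probes had an adjusted p under 0.05 in either direction, beside 0.0102% of 19531 probes called lower (2 probes) and 0% called higher. The 3 members with the smallest p were Il6 and Il11, both lower, and Socs3, higher. These were 3 of 11 at an unadjusted p under 0.05, against 4.99% of all probes, and each had an adjusted p of 0.932. Because the genes were chosen with earlier results known, the 2 shares are no test of an excess. Of the 11, only Il6 was lower in 4 of 4 pairs (9.09% of all probes were) and only Socs3 was higher in 4 of 4 (5.2%). The differences of the 11 had a median of -0.02, beside -0.01 over all probes tested, with 8 below and 3 above 0. The remaining 5 probes, 1 of Osmr, 3 of Lifr and 1 of Stat3, were above background on fewer than 4 arrays and were not tested.

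**Figure D1:**
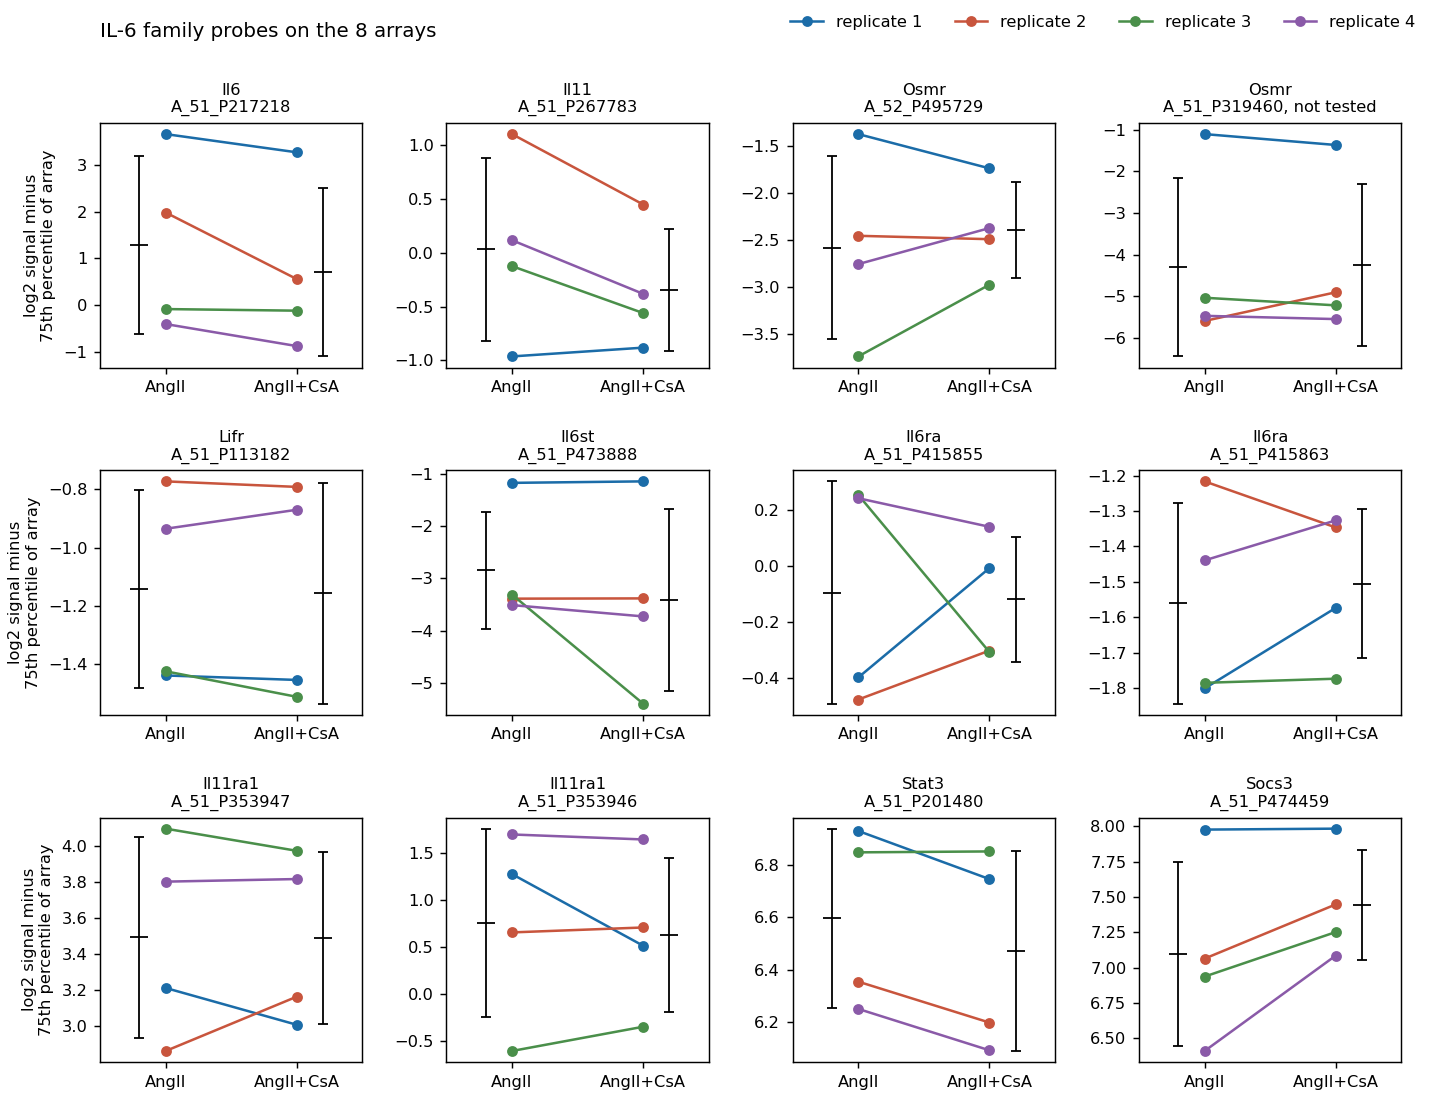
Level (log2 signal minus the 75th percentile of the array) of the 11 tested IL-6 family probes and of the untested Osmr probe on each array, with a line joining the 2 arrays of each replicate number and black bars for the mean and SD of each group (n = 4). The lines of different replicates lie farther apart than the ends of most single lines, as in Il6, where replicate 1 lies at 3.66 and 3.27 and replicate 4 at -0.41 and -0.88.

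Il6, the founding cytokine of the family, was printed as 10 spots of 1 probe (A_51_P217218, chromosome 5 from 29052734 to 29052793, build mm7). Its levels with AngII were 3.66, 1.98, -0.09 and -0.41 in replicates 1 to 4, a mean of 1.29 ± 1.91 (SD, n = 4). With AngII+CsA they were 3.27, 0.56, -0.12 and -0.88, a mean of 0.71 ± 1.81 (SD, n = 4). The groups overlapped over nearly their whole range, and each culture with cyclosporin lay below its partner. The within-pair differences were -0.39, -1.43, -0.03 and -0.47. Their mean of -0.58, a 1.5-fold lower level, had a 95% interval of -1.13 to -0.04 and did not pass (limma, replicate block, adjusted p = 0.932). Pair 2 gave the widest gap, and without it the mean was -0.30. Without replicate 1, whose arrays stood apart, it was -0.64.

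The repeated spots give the measuring error of Il6 within an array. Their SD was 0.0374 to 0.124 over the 8 arrays. The differences in pairs 1, 2 and 4 exceeded it, whereas the -0.03 of pair 3 was smaller than the SD of the spots on the AngII array of that pair (0.0752). This SD is that of single spots, and a mean over the spots varies less. It therefore does not tell whether the difference of pair 3 exceeded the measuring error. The spots share 1 hybridisation, so they say nothing of the spread between cultures.

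**Figure D2:**
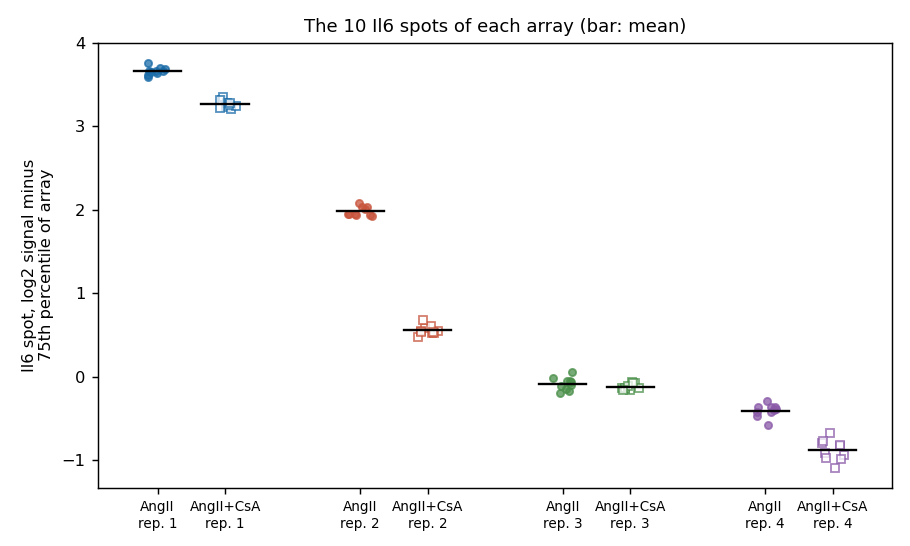
Level (log2 signal minus the 75th percentile of the array) of each of the 10 Il6 spots on the 8 arrays, filled circles for AngII and open squares for AngII+CsA, with the mean as a bar. The spots of an array lie close together (SD at most 0.124), while the arrays range from 3.66 to -0.88.

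The larger variation in Il6 was between cultures. The mean of the 2 arrays of a number was 3.47, 1.27, -0.10 and -0.64 for replicates 1 to 4, a span of 4.11 or 17.3-fold. Replicate number held 94.4% of the sum of squares of Il6 and treatment 3.16%, beside medians of 87.3% and 1.82% over all tested probes. Number and slide coincide and cannot be told apart. Among 10374 other genes, those closest to Il6 in pattern over the 8 arrays, each centred on its own mean, were Rgs2, Sned1 and Fgf7, with root mean square differences of 0.40, 0.43 and 0.51 log2. Their own cyclosporin differences were -0.06, -0.22 and 0.12. Because 94.4% of the sum of squares of Il6 lay between replicate numbers, a close match had to share that spread. The likeness therefore says little of the treatment.

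Il11, a cytokine that acts on stromal cells and fibroblasts, had 1 probe (A_51_P267783, chromosome 7 from 4347807 to 4347866). Its levels with AngII were -0.96, 1.11, -0.12 and 0.12, a mean of 0.03 ± 0.85 (SD, n = 4). With AngII+CsA they were -0.88, 0.45, -0.56 and -0.38, a mean of -0.34 ± 0.57 (SD, n = 4). The groups overlapped. Pairs 2, 3 and 4 were lower with cyclosporin, by -0.66, -0.44 and -0.50, and pair 1 was slightly higher, by 0.08. The mean difference was -0.38, a 1.3-fold lower level, with a 95% interval of -0.73 to -0.02, and did not pass (limma, replicate block, adjusted p = 0.932). Without replicate 1 it was -0.53 (limma, replicate block, adjusted p = 0.870). The order of the cultures was not that of Il6: replicate 1, which held the highest Il6, held the lowest Il11 in both groups.

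Lif had no probe under that name. One probe named only by its accession, AK019683 (A_51_P306109, chromosome 11 from 4226323 to 4226382), is described on the array as a cDNA whose product is leukemia inhibitory factor. It lies outside the rule and was looked up after the values of the other ligands were seen. Its levels were 0.56, -0.09, 0.40 and 0.64 with AngII, and 0.21, -0.16, 0.13 and -0.12 with AngII+CsA. All 4 pairs were lower with cyclosporin, by -0.35, -0.07, -0.26 and -0.76, as in 9.09% of all probes. The groups overlapped. The mean difference of -0.36 did not pass (limma, replicate block, adjusted p = 0.932).

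The promoters of Il6, Il11 and Socs3 are shown because these genes had the smallest p among the members and because Il6 is a textbook target of NF-kB, C/EBP, AP-1 and NFAT factors. Each is the RefSeq sequence of the 250 bases before the annotated start of transcription in build GRCm38.p6, on the strand of the gene. All 10 genes matched the promoter table, with 13 starts. Capitals mark matches, on either strand, to the NFAT core GGAAA, the AP-1 element TGANTCA, the kappa-B element GGANTTTCC, the STAT element TTCNNNGAA and the C/EBP element TTGCNNAA.
Il6, chr5:30012864-30013113, plus strand: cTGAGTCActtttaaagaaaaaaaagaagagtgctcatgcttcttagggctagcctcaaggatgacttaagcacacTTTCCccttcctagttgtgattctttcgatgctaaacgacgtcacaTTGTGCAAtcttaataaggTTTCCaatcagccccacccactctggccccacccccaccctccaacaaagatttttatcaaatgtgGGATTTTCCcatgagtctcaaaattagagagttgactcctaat
Il11, chr7:4778142-4778391, minus strand: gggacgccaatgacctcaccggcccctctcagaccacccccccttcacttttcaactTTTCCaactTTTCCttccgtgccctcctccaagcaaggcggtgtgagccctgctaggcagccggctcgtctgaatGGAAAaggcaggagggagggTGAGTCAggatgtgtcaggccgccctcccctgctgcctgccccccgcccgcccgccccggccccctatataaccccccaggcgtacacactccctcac
Socs3, chr11:117969367-117969616, minus strand: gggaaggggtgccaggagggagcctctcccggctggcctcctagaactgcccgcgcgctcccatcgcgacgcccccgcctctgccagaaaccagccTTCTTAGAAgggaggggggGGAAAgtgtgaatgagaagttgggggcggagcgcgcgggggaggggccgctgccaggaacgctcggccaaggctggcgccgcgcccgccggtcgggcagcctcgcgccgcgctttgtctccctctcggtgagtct

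In Il6 the kappa-B match began at base -43 from the start, and an NFAT core at -39 lay inside it on the other strand. Il6 held further NFAT cores at -174 and -109, a C/EBP match at -128 and an AP-1 match at -249. The Il11 start shown held 3 NFAT cores, at -193, -184 and -118, and an AP-1 match at -98. The other annotated start of Il11, which lies upstream, had 0 matches to these 5 motifs. Socs3 held a STAT match at -154 and an NFAT core at -135. Over all 32851 promoter windows of this length, 55.6% held an NFAT core, 6.75% the AP-1 element, 1.07% the kappa-B element, 7.02% the STAT element and 9.56% the C/EBP element. The NFAT core is therefore common, and the kappa-B match of Il6 is the least common of those found. Members not shown held NFAT cores too: Osmr 3, the downstream start of Il11ra1 3, Il6st 2 and Lif 1. Lif also held an AP-1 match at -228. The upstream start of Il11ra1 and the starts of Lifr, Il6ra and Stat3 held none of the 5 motifs. The matches thus do not set apart the 3 genes shown, which were picked by their p. These are matches of letters, and binding was not measured here.

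Receptor transcripts showed no difference that passed. Il6st, which encodes the gp130 chain shared by the family, was read by 1 dim probe (A_51_P473888, chromosome 13 from 109662276 to 109662335), above background on 2 of 4 arrays of each group, those of replicates 1 and 2. Its levels were -1.18, -3.39, -3.31 and -3.51 with AngII and -1.15, -3.39, -5.40 and -3.73 with AngII+CsA. The mean difference of -0.57 (95% interval -1.44 to 0.30, limma, replicate block, adjusted p = 0.932) rested on pair 3, where both arrays were below background. Without that pair it was -0.06, and with normexp background correction it was -0.17. Replicate 1 held the highest Il6st in both groups, as it did for Il6.

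Osmr, the oncostatin M receptor chain, showed the same culture. Its tested probe (A_52_P495729, chromosome 15 from 6641790 to 6641849) had levels of -1.37, -2.45, -3.73 and -2.75 with AngII and -1.73, -2.49, -2.97 and -2.37 with AngII+CsA. The difference of 0.19 (95% interval -0.28 to 0.66, limma, replicate block, adjusted p = 0.937) had both signs among the pairs and turned to -0.12 with normexp background correction. The other Osmr probe (A_51_P319460, chromosome 15 from 6640433 to 6640492) was above background only on the 2 arrays of replicate 1, at -1.11 with AngII and -1.37 with AngII+CsA. On the other 6 arrays it was not well above background. Replicate 1 was highest by both probes. The tested probe was above background on 7 of 8 arrays, all but the AngII array of replicate 3. Pair 3 differed by 0.76, and without that pair the mean difference was -0.0057.

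Lifr encodes the LIF receptor chain. Its 1 tested probe (A_51_P113182, chromosome 15 from 7017960 to 7018019) had levels of -1.44, -0.77, -1.42 and -0.94 with AngII and -1.45, -0.79, -1.51 and -0.87 with AngII+CsA. The within-pair differences were -0.02, -0.02, -0.09 and 0.07, a mean of -0.01 with a 95% interval of -0.26 to 0.23. Of the other 3 Lifr probes, 2 were above background on no array and 1 on 2 arrays. That one, A_52_P297113, stood at -4.75 with AngII and at -2.17 with AngII+CsA in replicate 1, and the neighbouring tested probe did not share that gap.

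The private receptors of IL-6 and IL-11 also stayed near 0 in difference. The Il6ra probes (A_51_P415855 and A_51_P415863, chromosome 3 from 90003321 to 90003380 and from 90013069 to 90013128) had levels of -0.48 to 0.25 and -1.80 to -1.22 over the 8 arrays. They differed by -0.02 (95% interval -0.44 to 0.39) and 0.06 (-0.21 to 0.32), with both signs among the pairs of each. The Il11ra1 probes (A_51_P353947 and A_51_P353946, chromosome 4 from 41907584 to 41907643 and from 41907660 to 41907719) differed by 0.00 (95% interval -0.30 to 0.30) and -0.13 (-0.56 to 0.31). Both also list the near-identical Il11ra2 among their accessions, so the share of each gene in the signal is uncertain. They disagreed over cultures: replicate 3 was highest by the one, at 4.03 as a mean of both arrays, and lowest by the other, at -0.47.

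Stat3, the transcription factor that carries the gp130 signal to the nucleus, was again printed as 10 spots of 1 probe (A_51_P201480, chromosome 11 from 100997323 to 100997382). Its levels were 6.93, 6.35, 6.85 and 6.25 with AngII and 6.75, 6.20, 6.85 and 6.09 with AngII+CsA. Pairs 1, 2 and 4 were lower by -0.18, -0.16 and -0.16, and pair 3 differed by 0.0035. The SD between its spots was 0.0297 to 0.0445. The mean difference of -0.12 had a 95% interval of -0.37 to 0.12 and an adjusted p of 0.934 (limma, replicate block), and it was 0.0080 with normexp background correction. The other Stat3 probe was above background on 0 arrays.

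Socs3, the feedback inhibitor and STAT3 target, went the other way from Il6. Its probe (A_51_P474459, chromosome 11 from 118075211 to 118075270) had levels of 7.98, 7.06, 6.94 and 6.41 with AngII, a mean of 7.10 ± 0.65 (SD, n = 4). With AngII+CsA the levels were 7.98, 7.45, 7.25 and 7.09, a mean of 7.44 ± 0.39 (SD, n = 4). The groups overlapped, and replicate 1 was highest and alike in both. The within-pair differences were 0.01, 0.38, 0.31 and 0.67, a mean of 0.34 or 1.27-fold higher, with a 95% interval of 0.02 to 0.67, and did not pass (limma, replicate block, adjusted p = 0.932). Without replicate 1 the mean was 0.46, and without replicate 4 it was 0.23. Treatment held 12.1% of its sum of squares, against 8.31% for Il11 and 3.16% for Il6. The genes nearest to Socs3 in pattern over the 8 arrays were Cat, Hsph1 (on the array as Hsp110) and Mphosph10, at root mean square differences of 0.13, 0.13 and 0.15 log2. Their own cyclosporin differences were 0.17, 0.11 and 0.21. Replicate number held 82.1% of the sum of squares of Socs3, so here too a close match had to share mainly that spread.

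**Figure D3:**
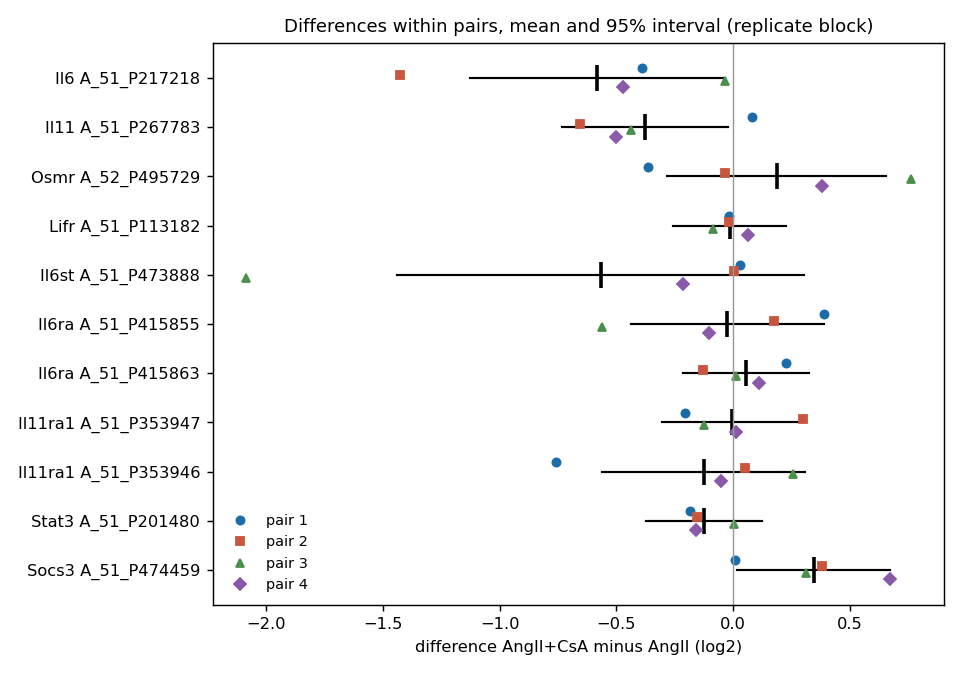
Difference AngII+CsA minus AngII (log2) of the 11 tested IL-6 family probes, with 1 coloured point per pair, the mean as a black tick and its 95% interval from the limma fit with the replicate block. The intervals of Il6, Il11 and Socs3 lie to one side of 0 and the other 8 include it, and none of the 11 passed after adjustment over 19531 probes.

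Across replicate numbers, which coincide with slides, 3 of the 11 tested probes had pair means that spanned over 2 log2. These were Il6, Il6st and 1 of 2 Il11ra1 probes, beside 7.79% of all probes, and the other Il11ra1 probe spanned 1.02. Because the genes were chosen with earlier results known, the share is no test of an excess. For Il6st the lower pair means include arrays below background. Replicate 1 was highest in both groups for Il6, Il6st, both Osmr probes and Socs3, but not for Il11, Lifr, Il6ra or Il11ra1. For Stat3, replicate 1 was highest with AngII alone, and its pair mean was 6.84 beside 6.85 for replicate 3.

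Other genes of the pathway were read from 4 lists, and 0 of their tested probes passed in either direction (limma, replicate block). For the other ligands and receptors, 11 of 19 probes were tested, with a median difference of -0.10. Of the 11, 1 probe had an unadjusted p under 0.05, beside 4.99% of all probes. That probe was Cntfr, the receptor of ciliary neurotrophic factor, at -0.43. It was lower in 4 of 4 pairs, as were 3 of the 11 and 9.09% of all probes. Ebi3, a subunit of IL-27 and IL-35, differed by 0.19 and Il27 by 0.02.

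Among JAK kinases, STATs and regulators, 34 of 59 probes were tested, with a median of 0.04 and 2 probes at an unadjusted p under 0.05, a share near the 4.99% of all probes. Both were of Jak2, a kinase that binds gp130. They differed by 0.42 and 0.69, higher in 4 of 4 pairs (as were 5.2% of all probes) and in 3 of 4 (adjusted p = 0.932 each, limma). Pias3, an inhibitor of STAT3, differed by 0.39 in one probe and -0.03 in the other, the phosphatase Ptpn1 by -0.07 and the adaptor Grb2 by 0.01 in their brightest probes. Of the STAT3-responsive genes, 38 of 45 probes were tested, with a median of 0.01. Of the 38, 1 probe had an unadjusted p under 0.05, beside 4.99% of all probes. That probe belonged to Timp1, an inhibitor of matrix proteases, and differed by 0.30, while the other 2 Timp1 probes differed by 0.23 and 0.05. The transcription factors Myc and Cebpd differed by 0.33 and 0.01 in the probes the rule named.

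Among regulators of Il6 transcription and mRNA decay, 28 of 42 probes were tested, with a median of 0.07 and 0 probes at an unadjusted p under 0.05. Fosl1, an AP-1 subunit, differed by 0.47, and Nfatc3, an NFAT factor, by 0.24 in a probe above background on 3 of 4 arrays of each group and by -0.03 in its brighter probe. Nfkbia, the inhibitor of NF-kB, differed by -0.04 and Elavl1, a protein that stabilises AU-rich mRNAs, by -0.13. The medians of the 4 lists stand beside -0.01 over all tested probes.

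**Figure D4:**
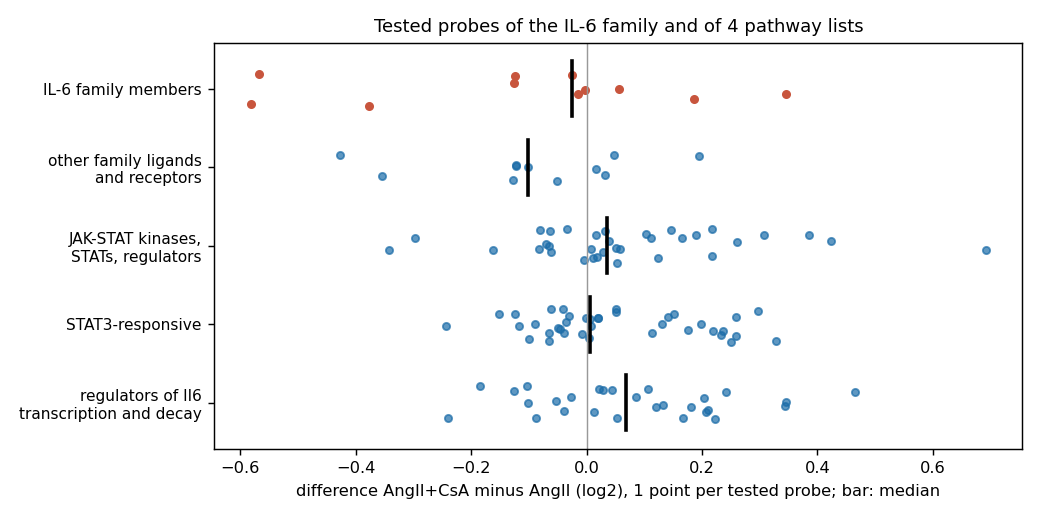
Difference AngII+CsA minus AngII (log2) of each tested probe of the IL-6 family and of the 4 pathway lists, with the median of each as a black bar. The lists centre between -0.10 and 0.07, and their probes range from -0.43 (Cntfr) to 0.69 (Jak2).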

How the data were processed

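Per the labels' protocols, total RNA of the 8 cultures was amplified into Cy3-labelled RNA, giving 1-colour arrays. These are of Agilent design 014868 and were read by Feature Extraction 9.5.3.1 (protocol GE1-v5_95_Feb07), with probe positions in build mm7, per the file headers. The files deposited by the authors give intensity per spot: the processed signal, already background-subtracted, and the mean and local background signals. A table of log2 values deposited by the authors served as an alternative. It ranks probes as the scanner files do (Spearman rho at least 1.00 to 2 decimals), and its normalization method and scale are not given in the sources used here. Its median was 3.01 on each of the 8 arrays. Its member differences lay close to those with quantile normalization (-0.59 and -0.60 for Il6), so these 2 alternatives are near repeats.

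Levels were log2 processed signal minus the array's 75th percentile, without control and outlier spots (no spot was saturated), averaged over the spots of a probe. Probes above background in at least 4 of 8 arrays (19531 of 41174) were fitted with limma 3.58.1 in R 4.3.3 with the replicate number as a block, two-sided, with Benjamini-Hochberg adjustment over all of them at 0.05. Probe names are those of the files. Exon or UTR positions were not looked up.

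Per the series' design text the cultures of a condition are independent. The labels number them 1 to 4, and per the file headers same-numbered arrays share a slide. After subtracting group means, same-numbered arrays correlated at 0.70 to 0.86 and others at -0.76 to 0.25, so the numbers pair the arrays. The residual degrees of freedom were 3 with the block and 6 without. The fit was tested on simulated data for this comparison with 19500 probes, 10 draws and 200 changed probes each: 6.8% of changes of 0.5 log2, 85.4% of 1, 98.4% of 1.5 and 99.0% of 2 were recovered, with a mean of 11.0 false calls. The 200 planted changes make the adjusted threshold easier to pass, and the noise was drawn as normal. In the data 2 probes were called, and Cnn1, at a mean of -1.71, was not. The shares recovered therefore do not carry over to these data.

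The members and lists were chosen with earlier results of these data known. Named were all members and, from each list, the genes called or else the 2 with the smallest p and the 2 brightest, and for Il6 and Socs3 the 3 genes nearest in pattern. One gene that this rule names is not reported here. Alternatives covered background correction, scaling, filtering, outlier spots, 1 probe per gene, the variance model, the pairing, the authors' table and leaving out each pair.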

Additional observations from a re-analysis of the deposited data

Results flagged for a closer look

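Over the 16 probes, the AngII values, the AngII+CsA values and the within-pair differences gave 48 sets of 4, of which 5 held a value far from the other 3; chance marks about 1 in 20. The Osmr probe A_51_P319460 stood apart in replicate 1 in both groups, at -1.11 with AngII against -5.59 to -5.04 in the others, and at -1.37 with AngII+CsA against -5.55 to -4.90. Il6st stood apart in replicate 1 with AngII, at -1.18 against -3.51 to -3.31. The Il6st difference of pair 3, -2.09, lay far below the -0.22 to 0.03 of the other pairs, and both of its arrays were below background. The Stat3 difference of pair 3, 0.0035, lay above the -0.18 to -0.16 of the other pairs, a gap of small size.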

How the results depend on the processing

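The call on the members did not move: 0 of their probes passed by limma under each of the 15 alternatives, with 0 to 4 at an unadjusted p under 0.05 (the 4 with normexp background correction, where 5103 of 19531 probes were, against 4.99% with the processed signal), and 0 probes of the pathway lists passed. Il6, Il11, Il6st and Socs3 kept their sign under every alternative that tested them, between -0.76 and -0.30, -0.53 and -0.28, -0.77 and -0.06, and 0.23 and 0.47. Those on filtering, the variance model or the pairing left these differences unchanged, so they could not turn a sign. Nor could leaving out 1 pair for Il6 and Socs3, whose 4 pairs share a sign. Il6st was at -0.06 without pair 3, whose arrays were below background. Over the 15 alternatives the smallest adjusted p was 0.190 for Il6, 0.162 for Il11 and 0.162 for Socs3, each with that normexp correction, under which many more probes of all kinds had a low p. The count over all probes, 2 with the replicate block, was 0 with no replicate block (58 at an unadjusted p under 0.05), where Il6, Il11 and Socs3 had an unadjusted p of 0.582, 0.410 and 0.350. It was 8 with the replicate as a random block, 0 with no filter on dim probes (2193 unadjusted), 4 with probes above background on all 8 arrays, 4 with 1 probe per gene and 6 with trend and robust variances. It was 0 without any 1 of the 4 replicates (664 to 1094 unadjusted), where fewer arrays enter the fit. The block changed no call among the members.

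Small differences turned sign. With normexp background correction they were -0.12 for Osmr (A_52_P495729), -0.10 for Il6ra (A_51_P415863), 0.11 for Il11ra1 (A_51_P353947) and 0.0080 for Stat3. Lifr gave 0.0302 with quantile normalization and 0.0290 with the authors' table. Leaving out 1 pair gave ranges of -0.0057 to 0.37 for that Osmr probe, -0.0406 to 0.0103 for Lifr, -0.16 to 0.15 and -0.0019 to 0.12 for the Il6ra probes (A_51_P415855 and A_51_P415863), and -0.10 to 0.0643 and -0.25 to 0.0854 for the Il11ra1 probes (A_51_P353947 and A_51_P353946). The cause was not tested. Il6st and the second Osmr probe lie at or near background on most arrays, and the 4 pairs limit the precision of every value.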
